A study of Mus musculus with 14 samples.

Results

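The genes described are the 9 that encode surface antigens by which colon cells were sorted in this study: Ptprc, Itgam, Fcgr1, Ly6g, Siglecf, Cd24a, Ly6c1, Ly6c2 and Epcam. They were found by gene name among the 55487 genes of the count table, where each of the 9 matched 1 row. Antibodies against the proteins set the gates, so no RNA value below selected the cells. The 14 RNA libraries came from sorted mouse colon cells in 4 groups. Macrophages of the lamina propria, the connective tissue under the epithelium, gave 3 libraries of Tsc2fl/fl Lyz2cre/+ mice (cre) and 3 of Tsc2fl/fl Lyz2+/+ mice (wt). EpCAM+ CD44-high epithelial cells gave 4 cre and 4 wt libraries. The titles carry 4 wt mouse numbers but the series text states 3 wt mice, so wt libraries may share an animal, and n below counts libraries. All animals carried floxed Tsc2, the gene of tuberin, which restrains the growth kinase complex mTORC1. Cre recombinase in the Lyz2 locus is active in myeloid cells, neutrophils included, and no group carried it without floxed Tsc2. No age is given in the labels. By label the macrophage libraries were 3 male for cre and 1 male and 2 female for wt, and the epithelial libraries 3 male and 1 female for cre and 2 male and 2 female for wt.

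The 9 antigens divide the cells of the gut wall by lineage. CD45, the product of Ptprc, is a tyrosine phosphatase carried by all nucleated blood-derived cells, and EpCAM, an adhesion molecule, covers epithelial cells. CD11b (Itgam) is an integrin chain of myeloid cells, and CD64 (Fcgr1) is the high-affinity receptor for immunoglobulin G, which in the gut sets macrophages apart from most dendritic cells. The remaining antigens were used to leave cells out. Ly6G marks neutrophils, SiglecF marks eosinophils and also tuft cells of the epithelium, and CD24 (Cd24a) is found on granulocytes, some dendritic cells, B cells and epithelium. Ly6C, encoded by Ly6c1 and Ly6c2, is high on monocytes that have newly entered the tissue, is lost as they become macrophages, and is also found on endothelium. The macrophage gate required CD45, CD11b, CD64 and MHC class II, took cells with and without CD11c, and left out cells with Ly6G, SiglecF, CD24, CD103 or Ly6C. The epithelial gate required EpCAM and CD44 and left out cells with CD45.

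Of the 9 genes, 3 belong to 1 family on chromosome 15, and the first 180 coding bases of these are shown because reads of 50 bases, as sequenced here, fall within stretches that Ly6c1 and Ly6c2 have in common. They are printed 5′ to 3′ from the start codon, from GENCODE transcripts of the mouse genome GRCm38, and capitals mark bases that differ from Ly6c1.
Ly6c1: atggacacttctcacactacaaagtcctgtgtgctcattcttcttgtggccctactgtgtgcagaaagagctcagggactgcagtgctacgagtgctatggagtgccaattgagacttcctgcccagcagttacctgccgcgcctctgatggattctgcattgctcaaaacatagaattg
Ly6c2: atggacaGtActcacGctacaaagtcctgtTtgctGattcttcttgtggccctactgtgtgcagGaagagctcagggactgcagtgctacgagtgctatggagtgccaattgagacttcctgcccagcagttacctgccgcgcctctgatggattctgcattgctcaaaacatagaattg
Ly6g: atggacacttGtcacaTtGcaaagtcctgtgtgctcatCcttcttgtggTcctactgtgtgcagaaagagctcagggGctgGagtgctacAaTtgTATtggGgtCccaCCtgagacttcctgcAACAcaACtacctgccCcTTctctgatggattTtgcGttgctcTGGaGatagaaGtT
In this window Ly6c2 differed from Ly6c1 at 6 bases and Ly6g at 33. Over the whole coding sequence of 396 bases Ly6c1 and Ly6c2 were 97.7% identical, with 9 mismatches and a longest identical run of 188 bases. Ly6g was 78.3% identical to Ly6c1 and 77.0% to Ly6c2. Of all stretches of 50 bases in Ly6c1 transcripts, 32.8% also occurred in another gene, 21.5% in Ly6c2 and 11.1% in Ly6a. Of those in Ly6c2 transcripts, 13.9% occurred in Ly6c1. How reads from shared stretches were assigned is not stated in the labels, so the 2 Ly6c genes are also reported as a sum.

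The other members lie apart from one another. Ptprc lies on chromosome 1 (138062861 to 138175708, minus strand), Fcgr1 on chromosome 3 (96282909 to 96293969, minus strand), Cd24a on chromosome 10 (43578284 to 43584265, plus strand) and Epcam on chromosome 17 (87635979 to 87651129, plus strand), all in GRCm38. Siglecf (43351341 to 43359531) and Itgam (128062640 to 128118491) lie on the plus strand of chromosome 7. On chromosome 15, Ly6c1 (75044018 to 75048830) and Ly6c2 (75108158 to 75111970) lie on the minus strand and Ly6g (75155240 to 75159126) on the plus strand. Itgam overlaps the annotated gene Gm49368 on the same strand over 3450 exonic bases, and 66.3% of its stretches of 50 bases also belong to that gene. Gm49368 held 0 or 1 counts in every library, so reads that fall in both genes may be absent from the Itgam counts, and the level of Itgam relative to other genes is uncertain. Of the stretches of Cd24a, 2.75% occurred in the pseudogene Gm6212, whose count was between 3.51% and 4.80% of that of Cd24a in each library. No stretch of Fcgr1 or Epcam occurred in another gene.

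Each library held between 7269103 and 9364551 counts. Levels are given as CPM, counts scaled to library size by TMM over the 14 libraries, and a floor of 3 counts corresponded to 0.260 to 0.513 CPM per library. All 12 macrophage markers on a list were higher in macrophage libraries and all 13 epithelial markers were higher in epithelial libraries. The 1 ribosomal RNA row took 7.37% to 31.8% of counts, with 3 cre epithelial libraries at 7.37% to 10.6% and cre 8 at 26.7%, against 18.5% to 31.8% in wt epithelial libraries. Summed markers of B and plasma cells reached 7002 to 10995 CPM in cre and 3567 to 13569 CPM in wt macrophage libraries. Summed fibroblast and muscle markers reached 988 to 2887 CPM in cre and 3264 to 5450 CPM in wt macrophage libraries.

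The antigens that the macrophage gate required were abundant as RNA in macrophages and close to absent in epithelial cells. Ptprc stood at 362, 403 and 376 CPM in cre macrophages 10, 8 and 9, and at 366, 402 and 424 CPM in wt macrophages 2, 4 and 6. In epithelial cells Ptprc stood at 0.822, 0.867, 2.11 and 0.965 CPM in cre 10, 5, 8 and 9, and at 3.14, 1.31, 6.30 and 3.11 CPM in wt 2, 4, 6 and 7. The 6 macrophage libraries thus lay within a narrow band, whereas the epithelial libraries held 9 to 18 Ptprc counts in cre and 12 to 44 in wt. Between macrophages and epithelial cells the fitted log2 difference of Ptprc was 7.61 (SE 0.24, edgeR adjusted p = 6.65e-14).

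Fcgr1 stood at 84.7, 114 and 99.0 CPM in cre macrophages 10, 8 and 9, and at 69.6, 111 and 106 CPM in wt macrophages 2, 4 and 6. The ranges of both genotypes overlapped over most of their width. Epithelial libraries held 2 to 5 Fcgr1 counts in cre and 1 to 8 in wt, and the log2 difference between macrophages and epithelial cells was 7.76 (SE 0.23, edgeR adjusted p = 2.15e-14). Itgam, with the limit from Gm49368, stood at 23.1, 15.7 and 24.8 CPM in cre macrophages 10, 8 and 9 and at 25.7, 24.2 and 31.1 CPM in wt macrophages 2, 4 and 6. Cre 8 was the lowest macrophage library for Itgam and the highest for Fcgr1. No epithelial library held more than 3 Itgam counts, and the log2 difference was 7.91 (SE 0.33, edgeR adjusted p = 1.20e-12).

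Epcam, the antigen that the epithelial gate required, had the opposite distribution. It stood at 5.57, 7.01 and 3.48 CPM in cre macrophages 10, 8 and 9, and at 11.5, 3.54 and 15.3 CPM in wt macrophages 2, 4 and 6. In epithelial cells it stood at 471, 354, 446 and 474 CPM in cre 10, 5, 8 and 9, and at 458, 499, 562 and 613 CPM in wt 2, 4, 6 and 7. The cell types did not overlap, and the log2 difference between macrophages and epithelial cells was -6.04 (SE 0.27, edgeR adjusted p = 3.47e-12). The wt macrophage libraries 2 and 6 held the most Epcam among macrophages. The summed CPM of 12 other epithelial markers stood at 210, 211 and 86.6 in cre macrophages 10, 8 and 9 and at 183, 57.2 and 423 in wt macrophages 2, 4 and 6. Wt 6 was thus the highest macrophage library in both measures.

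**Figure D1:**
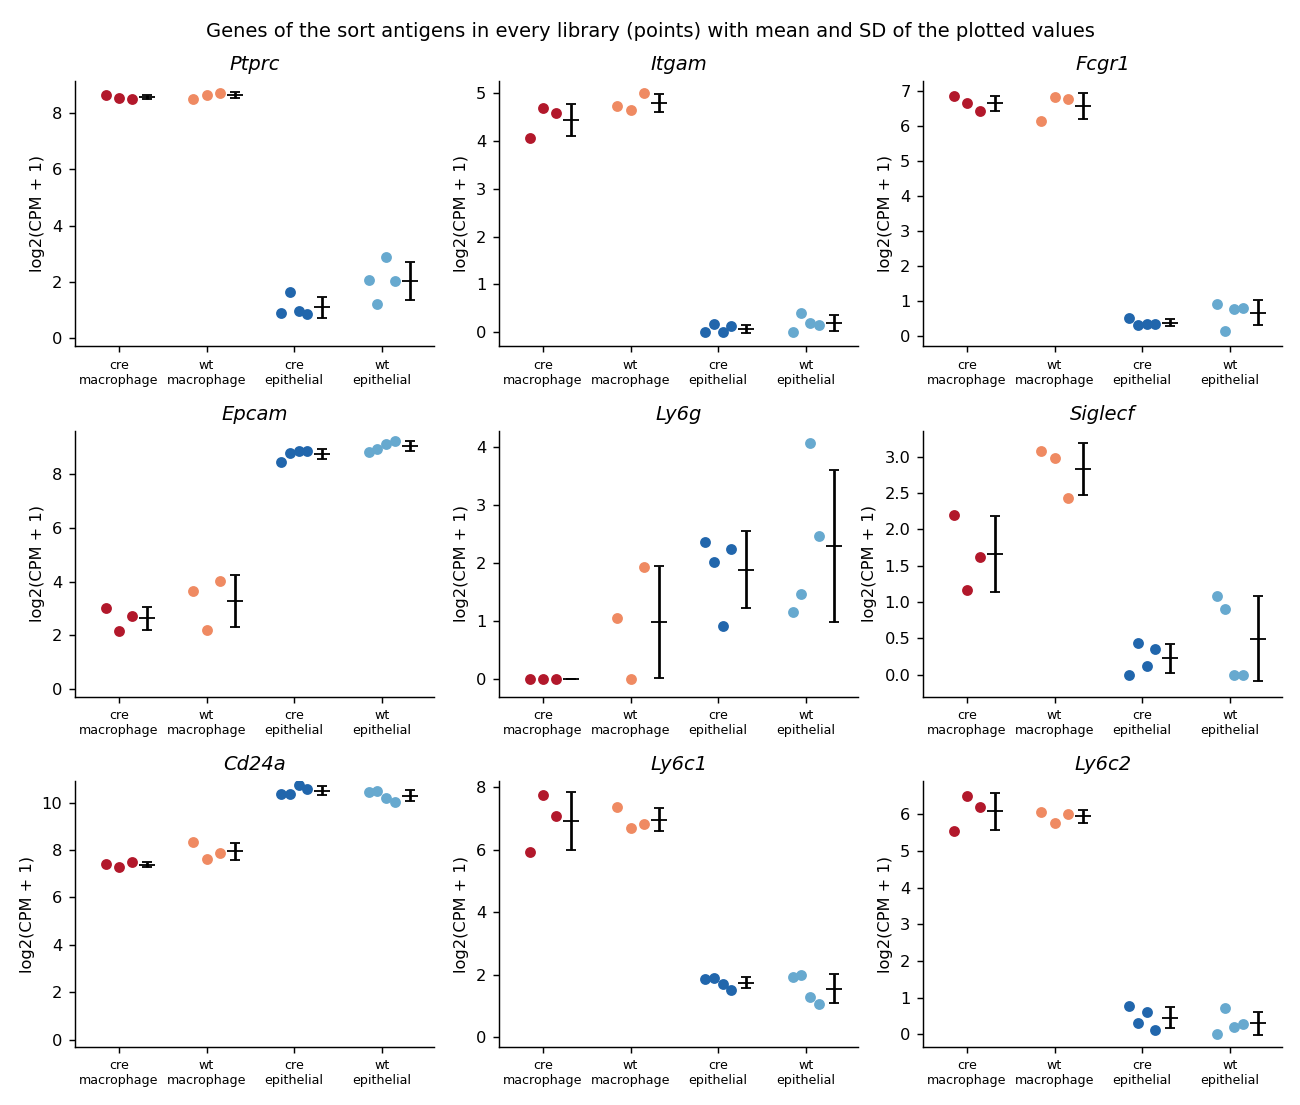
Level of each of the 9 genes in every library as log2(CPM + 1), in cre macrophages, wt macrophages, cre epithelial cells and wt epithelial cells from left to right; points are libraries, and the black mark gives the mean and SD of the plotted values. Ptprc, Itgam, Fcgr1, Ly6c1 and Ly6c2 separate the macrophages above the epithelial cells, Epcam and Cd24a do so in the other direction, and Ly6g overlaps between the cell types.

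The antigens by which cells were left out of the macrophage gate fell into 2 kinds. Ly6g and Siglecf RNA was scarce in macrophages, whereas Cd24a, Ly6c1 and Ly6c2 RNA was present in every macrophage library. Ly6g had 0 counts in all 3 cre macrophage libraries, and 9, 0 and 21 counts in wt macrophages 2, 4 and 6. Against a floor of 3 counts over the cre group, Ly6g was at least 8.88-fold lower in cre than in wt macrophages, but only at least 3.98-fold lower without wt 6, 1 wt library was at 0 too, and the gene did not pass the filter on low counts there. In epithelial cells Ly6g stood at 3.75, 4.16, 3.05 and 0.877 CPM in cre 10, 5, 8 and 9, and at 1.23, 1.75, 15.7 and 4.50 CPM in wt 2, 4, 6 and 7. Wt 6 stood above the other epithelial libraries.

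The neutrophil antigen was thus the only member besides Epcam and Cd24a with a higher mean in epithelial cells, at 0.643 ± 1.14 CPM in 6 macrophage and 4.38 ± 4.79 CPM in 8 epithelial libraries (SD). The ranges overlapped, since wt macrophages 6 held 2.79 CPM. The edgeR test between cell types called the difference (adjusted p = 0.00200), but its fitted size rests on 4 macrophage libraries with 0 counts and is not given as a fold. Neutrophil markers other than Ly6g were near 0 in epithelial cells. The summed CPM of 13 such markers was 0.347 to 1.88 in cre and 0.337 to 2.04 in wt epithelial libraries, with 8 of the 13 at 0 in all libraries of each genotype, Cxcr2, Camp, Ngp and Elane among them. In macrophages the same sum was 83.7 to 103 CPM in cre and 62.5 to 123 CPM in wt, with Cxcr2, Camp, Ngp and Elane at 0 in each library and the neutrophil alarmin genes S100a8 and S100a9 at 0 in wt. The sum there thus came from other genes of the list, which are not named here. The number of list genes at 0 was 9, 7 and 5 in cre macrophages 10, 8 and 9, and 9, 7 and 8 in wt macrophages 2, 4 and 6. Of the 13, 4 passed the filter on low counts in macrophages, 2 with a positive and 2 with a negative change, and 0 passed the test. The part of other cells in the Ly6g values was not tested.

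Siglecf, an inhibitory sialic acid receptor, stood at 2.07, 3.59 and 1.24 CPM in cre macrophages 10, 8 and 9, and at 7.49, 6.93 and 4.38 CPM in wt macrophages 2, 4 and 6. The genotypes did not overlap, yet the log2 change of -1.44 (SE 0.47) did not pass the test in macrophages (edgeR adjusted p = 0.234). These values rest on 10 to 21 counts in cre and 33 to 63 counts in wt. The summed CPM of 9 eosinophil markers, Siglecf and Cd24a left out, was 68.1, 51.3 and 42.8 in cre macrophages 10, 8 and 9, and 103, 108 and 112 in wt macrophages 2, 4 and 6, without overlap. Of the 9, 5 were tested, each with a negative change and 0 past the threshold. The granule protein gene Epx averaged 0.0415 CPM in cre and 0.492 CPM in wt macrophages, and Prg2 averaged 0.480 CPM in cre and 1.78 CPM in wt. All but the Prg2 mean in wt lay near or below the floor of 3 counts. That floor was 0.373 to 0.513 CPM in cre and 0.356 to 0.443 CPM in wt macrophage libraries. The eosinophil sum thus rested mostly on other genes of the list. The part of eosinophils in the Siglecf values was not tested. Epithelial libraries held 0 to 3 Siglecf counts in cre and 0 to 10 in wt, and the log2 difference between macrophages and epithelial cells was 3.61 (SE 0.59, edgeR adjusted p = 3.29e-05).

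Cd24a encodes a small glycosylated protein anchored in the outer face of the plasma membrane. It stood at 179, 167 and 153 CPM in cre macrophages 10, 8 and 9, and at 323, 195 and 232 CPM in wt macrophages 2, 4 and 6. All 3 cre libraries lay below all wt libraries, but the log2 change of -0.57 (SE 0.19) did not pass the test (edgeR adjusted p = 0.240). In epithelial cells it stood at 1530, 1321, 1309 and 1693 CPM in cre 10, 5, 8 and 9, and at 1412, 1426, 1179 and 1036 CPM in wt 2, 4, 6 and 7. The log2 difference between macrophages and epithelial cells was -2.74 (SE 0.13, edgeR adjusted p = 7.73e-12), the smallest in size among the 9 genes.

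Macrophages, sorted as lacking CD24, thus held Cd24a RNA at 11.2% to 23.7% of the epithelial mean. Epcam in the same libraries was at 0.719% to 3.15% of its epithelial mean, and the sum of 12 other epithelial markers at 0.447% to 3.30%. Cd24a therefore stood at a share above that of these other epithelial transcripts in each of the 6 libraries. In the other direction, Ptprc in epithelial libraries was at 0.211% to 1.62% of its macrophage mean, Fcgr1 at 0.112% to 0.922%, Itgam at 0% to 1.36% and Ly6c2 at 0% to 1.07%. The sum of 12 macrophage markers was at 0.232% to 0.735%. Ly6c1, at 0.818% to 2.26%, stood above the marker sum in each epithelial library.

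**Figure D2:**
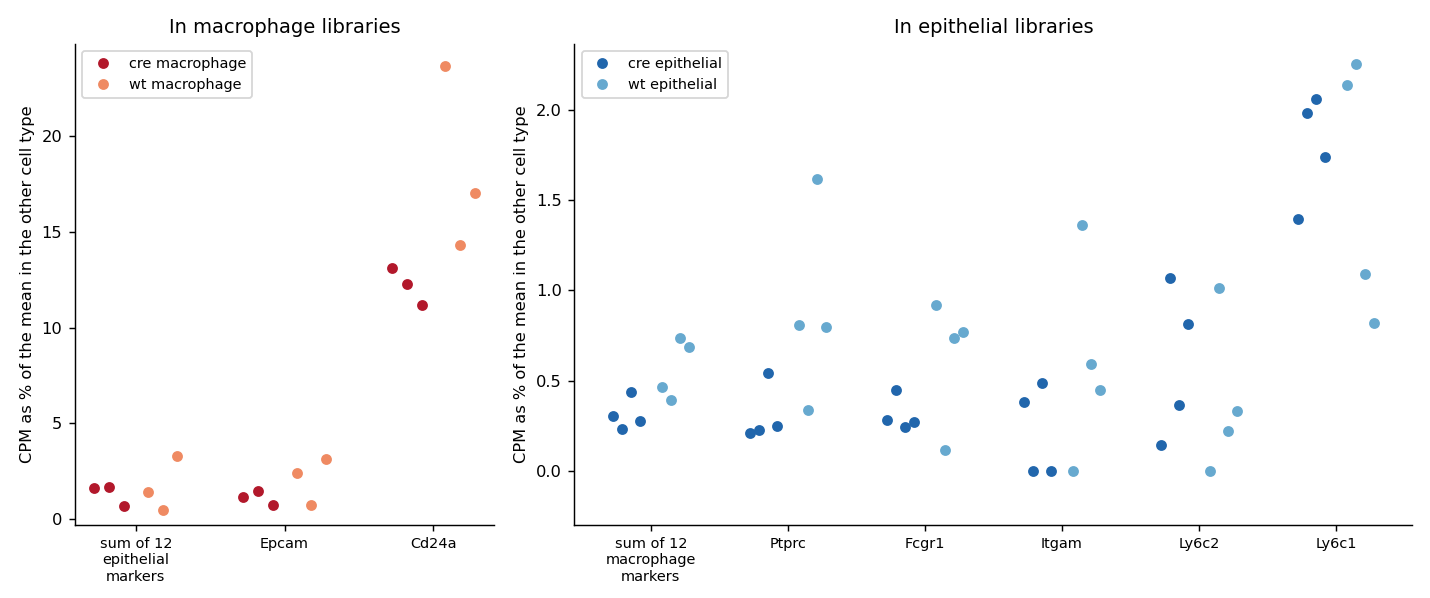
CPM in each library as a percent of the mean in the other cell type, for genes and summed markers in macrophage libraries (left) and in epithelial libraries (right); points are libraries, cre left of wt for each item. Cd24a in macrophages lies at 11.2% to 23.7% of the epithelial mean, above the epithelial marker sum at 0.447% to 3.30%, and Ly6c1 lies highest among the items shown for epithelial cells in the cre libraries.

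Ly6c1 and Ly6c2 encode small membrane-anchored proteins that the gate left out, and both were present as RNA in macrophages. Ly6c1 stood at 135, 59.2 and 213 CPM in cre macrophages 10, 8 and 9, and at 165, 101 and 112 CPM in wt macrophages 2, 4 and 6. Ly6c2 stood at 72.1, 45.3 and 89.4 CPM in cre macrophages 10, 8 and 9, and at 65.5, 52.8 and 63.4 CPM in wt macrophages 2, 4 and 6. In both genes cre 8 was the lowest and cre 9 the highest macrophage library, so that the cre libraries spanned the wt range. Epithelial libraries held 20 to 30 Ly6c1 counts and 1 to 8 Ly6c2 counts in cre, and 10 to 27 Ly6c1 counts and 0 to 6 Ly6c2 counts in wt.

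Summed over both genes, the level was 205 ± 99.2 CPM in cre and 187 ± 39.1 CPM in wt macrophages (SD, n = 3 each). The exact permutation test, two-sided, gave p = 0.8, where 3 against 3 libraries cannot go below 0.1. In epithelial cells it was 2.74 ± 0.585 CPM in cre and 2.32 ± 1.08 CPM in wt (SD, n = 4 each), with an exact two-sided p = 0.514 where the smallest possible is 0.0286. Adjusted over the 3 comparisons made of the sum, these exact p-values were 0.8 and 0.771. The sum in all macrophages was 196 ± 68.2 CPM, against 2.53 ± 0.837 CPM in epithelial cells (SD, n = 6 and 8). Its exact two-sided permutation p of 0.000333 is the smallest that 6 against 8 libraries allow (adjusted 0.000999), and all 6 macrophage libraries lay above all 8 epithelial libraries. In the separate fits the log2 difference between macrophages and epithelial cells was 5.88 (SE 0.29, edgeR adjusted p = 1.42e-11) for Ly6c1 and 7.58 (SE 0.31, edgeR adjusted p = 1.02e-12) for Ly6c2.

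Endothelial markers varied among macrophage libraries in the same order at both ends. The summed CPM of 11 such markers without Ly6c1 was 549, 155 and 1255 in cre macrophages 10, 8 and 9, and 636, 328 and 565 in wt macrophages 2, 4 and 6. The lowest was cre 8 and the highest cre 9, as for Ly6c1. None of the 11 was at 0 in all macrophage libraries of a genotype, and Plvap, which forms the diaphragms of vessel pores, averaged 214 ± 218 CPM in cre and 154 ± 50.7 CPM in wt macrophages (SD, n = 3 each). The summed CPM of 10 monocyte markers without Ly6c2 was 797, 578 and 831 in cre macrophages 10, 8 and 9, and 1046, 1045 and 1268 in wt macrophages 2, 4 and 6. That sum did not overlap between genotypes, whereas Ly6c2 did. The monocyte sum also stood at 882 to 1079 CPM in cre and 588 to 759 CPM in wt epithelial libraries, so as a sum it is not particular to monocytes. Its list holds Cd177, which alone averaged 682 CPM over the epithelial libraries. Of the 11 genes on the list, Ly6c2 included, 9 were called higher in macrophages and 1 lower. The part of endothelium and monocytes in the Ly6c values was not tested.

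**Figure D3:**
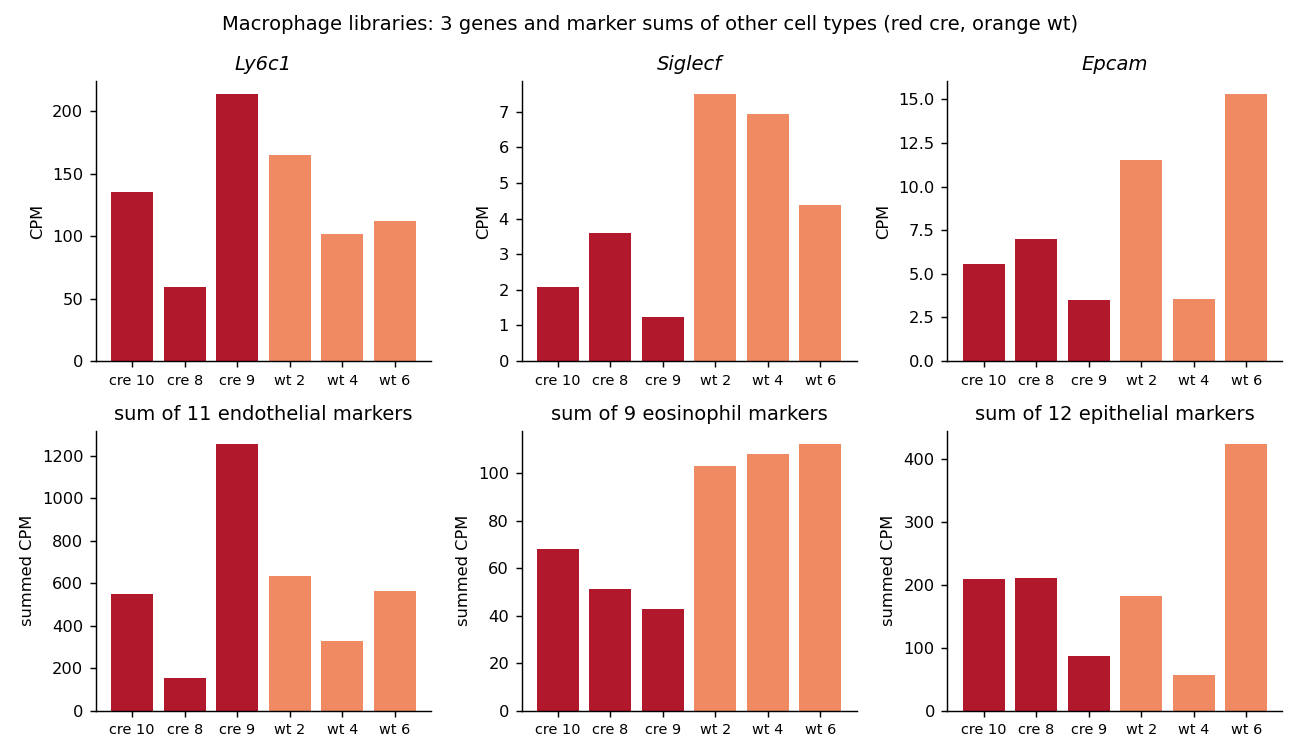
CPM of Ly6c1, Siglecf and Epcam (top) and summed CPM of markers of endothelium, eosinophils and epithelium without these genes (bottom) in the 6 macrophage libraries; bars are libraries named by genotype and mouse number, cre in red and wt in orange. Ly6c1 and the endothelial sum are lowest in cre 8 and highest in cre 9, all 3 cre libraries lie below all wt libraries for Siglecf and for the eosinophil sum, and wt 6 is highest for Epcam and for the epithelial sum.

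By genotype, none of the 9 genes passed the test in macrophages. Of these, 8 passed the filter on low counts and 0 passed the edgeR test at an adjusted p under 0.05, against a background of 0.944% of all 14087 genes tested. An unadjusted edgeR p under 0.05 was reached by 2 members, Siglecf and Cd24a, against 12.8% of all genes tested. Of the other members whose products the gate left out, Ly6g was not tested. Ly6c1 had an unadjusted edgeR p of 0.763 and Ly6c2 one of 0.417. DESeq2 called 0 of the 8. Epcam had a log2 change of -0.91 (SE 0.51, edgeR adjusted p = 0.513) and Itgam one of -0.33 (SE 0.23, edgeR adjusted p = 0.631). Ly6c2 (0.21, SE 0.24), Ly6c1 (0.13, SE 0.42), Fcgr1 (0.06, SE 0.22) and Ptprc (-0.05, SE 0.14) had smaller changes. The 8 changes had a median of -0.19, with 3 positive and 5 negative, against a median of 0.00 over all genes tested. Sex went with genotype in these libraries. On simulated counts this test called 15% of 2-fold and 67% of 4-fold changes, so changes of such size can be missed.

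In epithelial cells 5 of the 9 genes passed the filter and 1 changed, against a background of 9.17% of 13553 genes tested. This was Ptprc, which fell by 1.56 on the log2 scale (SE 0.46, edgeR adjusted p = 0.0480), with 1.19 ± 0.618 CPM in cre and 3.47 ± 2.07 CPM in wt (SD, n = 4 each). The groups overlapped, as cre 8 lay above wt 4. In bulk samples, fewer cells of a type and less RNA per cell cannot be told apart. Macrophage transcripts in the same libraries followed a like order. The sum of 12 macrophage markers stood at 60.2, 45.9, 86.5 and 54.6 CPM in cre 10, 5, 8 and 9, and at 91.2, 77.8, 145 and 136 CPM in wt 2, 4, 6 and 7, and all 11 of the list's tested genes had a negative change, of which 2 passed. Cre 8 was the highest cre library and wt 4 the lowest wt library in both Ptprc and this sum. Of tuft cells, which can carry CD45, the sum of 11 markers without the 9 genes was 12.5 to 28.5 CPM in cre and 24.5 to 41.1 CPM in wt, and 6 of 6 tested were negative with 1 past the threshold. That tuft sum was higher in macrophage libraries, at 282 to 331 CPM in cre and 292 to 397 CPM in wt, so it is not particular to tuft cells. The mitochondrial share of counts was 10.4% to 10.7% in cre and 11.6% to 18.1% in wt epithelial libraries, without overlap. The part of macrophages, tuft cells and the mitochondrial share in the Ptprc value was not tested. The call for Ptprc was lost in 6 of 8 fits that left out 1 library, those without cre 10, 5 or 9 or without wt 2, 6 or 7, and edgeR adjusted p ran from 0.0182 to 0.146 over the 8. It was lost too with the ribosomal RNA share in the model (log2 change -0.57, edgeR adjusted p = 0.693).

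The other epithelial changes did not pass. Epcam had a log2 change of -0.30 (SE 0.12, edgeR adjusted p = 0.113), Cd24a one of 0.20 (SE 0.12, edgeR adjusted p = 0.289), Ly6c1 one of 0.16 (SE 0.35, edgeR adjusted p = 0.803) and Ly6g one of -0.95 (SE 0.84, edgeR adjusted p = 0.506). Ly6g turned to 0.23 without wt 6. The 5 changes had a median of -0.30, against -0.05 over all genes tested.

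**Figure D4:**
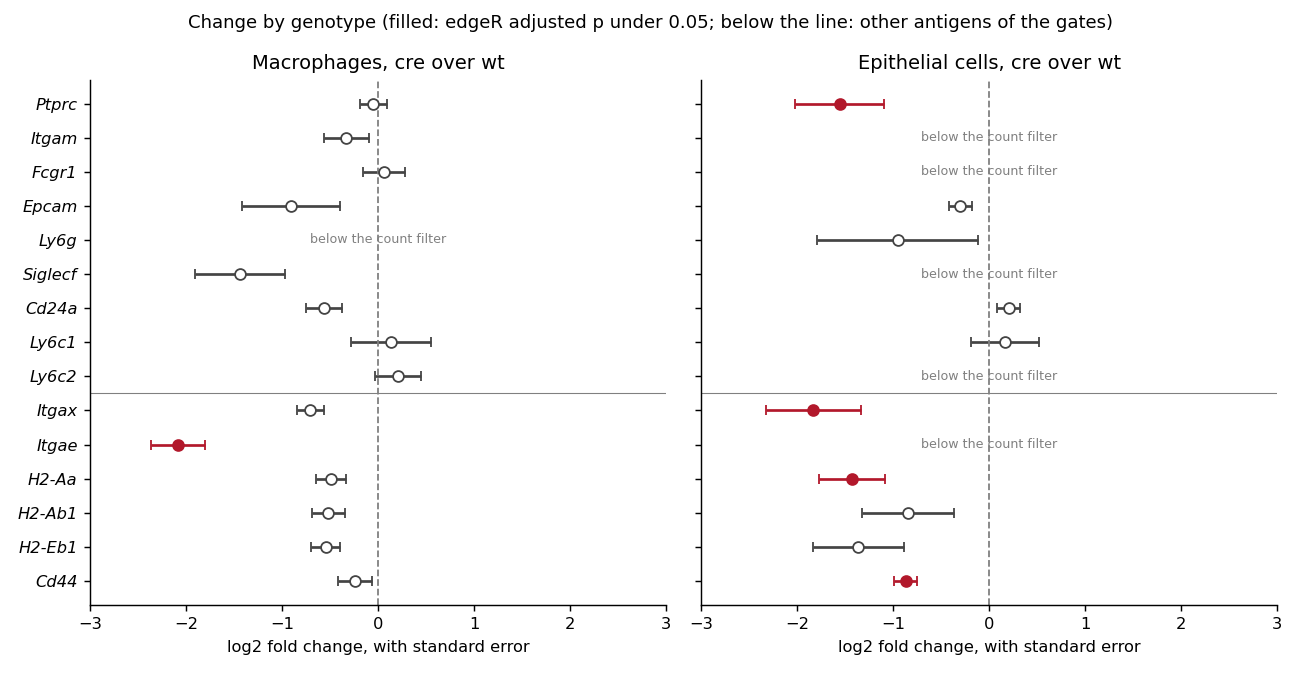
Fitted log2 fold change of cre over wt with its standard error for the 9 genes (above the line) and 6 further genes of the gates (below it), in macrophages (left) and epithelial cells (right); filled points have an edgeR adjusted p under 0.05. Of the 9 genes, Ptprc in epithelial cells (-1.56) is the filled one, and Itgae in macrophages and Itgax, H2-Aa and Cd44 in epithelial cells are filled below the line.

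Whether the genotype effect differed between macrophages and epithelial cells was tested over all 14 libraries. Of the 9 genes 0 passed with edgeR, against a background of 0.702% of 16375 genes tested. Against 15.3% of all genes tested, 2 of the 9 had an unadjusted edgeR p under 0.05. These were Ptprc, with a difference of effects of 1.48 (SE 0.47, edgeR adjusted p = 0.159), and Cd24a, with -0.80 (SE 0.24, edgeR adjusted p = 0.136). DESeq2 called both, with adjusted p of 0.0462 for Ptprc and 0.0240 for Cd24a. The edgeR test thus did not show that the change of Ptprc differed between the cell types. On simulated counts this test called 5% of 2-fold and 54% of 4-fold differences, so it can miss such differences. The difference between cell types itself passed for 9 of 9 genes, 6 higher and 3 lower in macrophages, against a background of 52.2% of 16375 genes. The cells had been sorted by the products of these genes, so that count is not read as a finding about them. Itgam, Fcgr1, Siglecf and Ly6c2 did not pass the filter in epithelial cells alone, nor Ly6g in macrophages alone. Both tests over the 14 libraries thus rest on few counts of these genes in 1 cell type.

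The levels per length, as the FPKM that the authors deposited, put the 9 genes in a different order in each cell type. In cre macrophages the mean was 72.9 ± 42.3 FPKM for Ly6c1, 67.3 ± 5.23 for Cd24a, 65.7 ± 22.3 for Ly6c2, 61.1 ± 2.25 for Ptprc and 31.5 ± 4.05 for Fcgr1 (SD, n = 3). Neighbours among the first 4 overlapped in their ranges, and the range of Fcgr1 lay below those of Cd24a, Ly6c2 and Ptprc but met that of Ly6c1, which stood at 30.7 FPKM in cre 8, against 35.3 FPKM for Fcgr1 there. In wt macrophages Cd24a was first at 100.2 ± 24.1 FPKM, followed by Ly6c1 at 66.5 ± 16.4, Ptprc at 63.6 ± 5.73 and Ly6c2 at 57.1 ± 5.59, again with overlapping neighbours, and then Fcgr1 at 30.3 ± 7.70 (SD, n = 3). Itgam, Epcam, Siglecf and Ly6g followed in this order of means in both genotypes. The ranges of Itgam and Epcam overlapped in both genotypes. In wt those of Epcam and Siglecf and those of Siglecf and Ly6g overlapped as well. Itgam averaged 3.56 FPKM in cre and 4.49 FPKM in wt, a level limited by the overlap with Gm49368. Per length, the RNA of Cd24a, Ly6c1 and Ly6c2, whose products the gate left out, was of the same order as that of Ptprc, whose product it required.

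In epithelial cells Cd24a led, with 552 ± 69.5 FPKM in cre and 466 ± 65.0 FPKM in wt, and Epcam came next with 162 ± 21.0 FPKM in cre and 194 ± 26.9 FPKM in wt (SD, n = 4 each). The ranges of these 2 genes overlapped neither with each other nor with the next. Ly6g came next at 2.41 ± 1.18 FPKM in cre and 4.66 ± 5.46 FPKM in wt, followed by Ly6c1 at 1.17 ± 0.200 FPKM in cre and 1.00 ± 0.452 FPKM in wt (SD, n = 4 each). The remaining 5 genes averaged under 1 FPKM, and their neighbours overlapped in range. The ratio of Ly6c1 to Ly6c2 FPKM, at 1.05, 0.733 and 1.34 in cre macrophages 10, 8 and 9 and at 1.41, 1.08 and 0.993 in wt macrophages 2, 4 and 6, lay near 1. In epithelial cells it was 2.10 to 11.2 in cre and 2.53 to 5.61 in the 3 wt libraries with a Ly6c2 count, from the few counts given above.

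**Figure D5:**
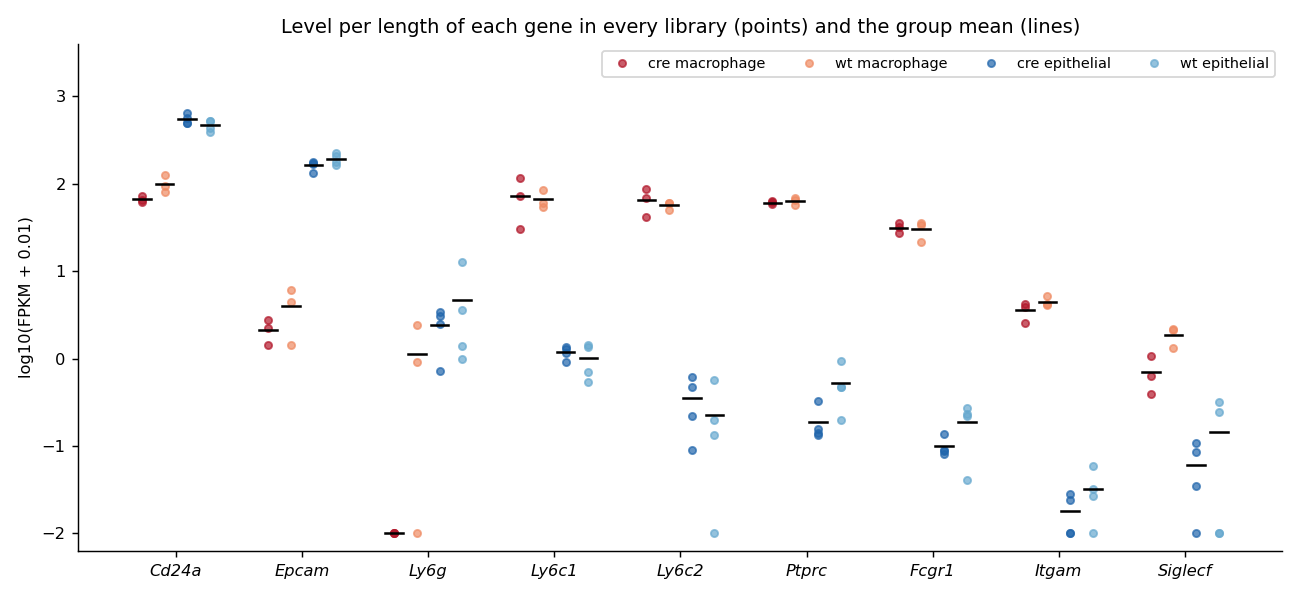
Level per length of each of the 9 genes as log10(FPKM + 0.01), from the deposited FPKM; points are libraries in 4 groups and black lines the group means, with genes along the horizontal axis. In macrophages Cd24a, Ly6c1, Ly6c2 and Ptprc lie at similar heights, and in epithelial cells Cd24a and Epcam lie far above the other 7.

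Of the gate antigens beyond the 9, integrin and MHC class II genes were higher in macrophages, and so was Cd44. Cd44, a hyaluronan receptor that the epithelial gate required, stood at 715 ± 124 CPM in macrophages and 94.3 ± 30.8 CPM in epithelial cells (SD, n = 6 and 8), a log2 difference of 2.98 (SE 0.11, edgeR adjusted p = 2.27e-13). In epithelial cells it stood at 74.8, 56.4, 69.1 and 67.8 CPM in cre 10, 5, 8 and 9, and at 135, 111, 110.1 and 131 CPM in wt 2, 4, 6 and 7. It fell by 0.87 on the log2 scale in cre epithelial cells (SE 0.12, edgeR adjusted p = 0.00648), with no overlap between genotypes. In macrophages Cd44 had a log2 change of -0.25 (SE 0.18, adjusted p = 0.636 by edgeR), and the difference of effects did not pass (0.60, SE 0.21, edgeR adjusted p = 0.202).

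CD103, the integrin chain encoded by Itgae that marks many intestinal dendritic cells, was to be absent from the macrophage gate. Itgae stood at 3.82, 3.93 and 5.10 CPM in cre macrophages 10, 8 and 9, and at 23.1, 16.8 and 15.8 CPM in wt macrophages 2, 4 and 6. It fell by 2.09 on the log2 scale (SE 0.28, edgeR adjusted p = 0.0165), with no overlap between genotypes. It no longer passed once sex was in the model (log2 change -1.87, edgeR adjusted p = 0.236), in males only (-1.87, 0.223), with the ribosomal RNA share (-1.91, 0.297) or in 4 of 6 fits that left out 1 library, those without cre 10, cre 8, wt 2 or wt 4 (edgeR adjusted p 0.0335 to 0.124 over the 6). The summed CPM of 12 dendritic cell markers, Itgae included, was 1769 to 1971 in cre and 2495 to 3773 in wt, and the part of dendritic cells was not tested. Itgax (CD11c), which the gate allowed but did not require, stood at 164, 156 and 153 CPM in cre and at 261, 238 and 283 CPM in wt macrophages, with a log2 change of -0.71 (SE 0.14) that did not pass (edgeR adjusted p = 0.0573). In epithelial cells Itgax fell by 1.83 (SE 0.50, edgeR adjusted p = 0.0348) at 0.729 ± 0.456 CPM in cre and 2.52 ± 1.41 CPM in wt (SD, n = 4 each).

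The class II genes H2-Aa, H2-Ab1 and H2-Eb1 encode chains of the molecules that present peptides to helper T cells. They averaged 5487, 14746 and 5039 CPM in cre macrophages and 7797, 21377 and 7446 CPM in wt macrophages. Their log2 changes there of -0.49 (SE 0.15), -0.52 (SE 0.17) and -0.55 (SE 0.15) did not pass, with edgeR adjusted p of 0.214, 0.239 and 0.160. In epithelial cells H2-Aa fell by 1.43 (SE 0.34, edgeR adjusted p = 0.0347) at 16.9 ± 5.16 CPM in cre and 45.1 ± 20.3 CPM in wt, whereas H2-Eb1 (-1.36, SE 0.47, adjusted p = 0.113) and H2-Ab1 (-0.85, SE 0.48, adjusted p = 0.306) did not pass (edgeR; SD, n = 4 each). The epithelial calls of Itgax and H2-Aa were each lost in 5 of 8 fits that left out 1 library, those without cre 10, 5 or 9 or without wt 6 or 7, with edgeR adjusted p up to 0.121 for Itgax and 0.122 for H2-Aa. With the ribosomal RNA share in the model they were lost as well, at a log2 change of -0.94 (edgeR adjusted p = 0.525) for Itgax and -0.77 (edgeR adjusted p = 0.394) for H2-Aa. H2-Eb1 passed in epithelial cells with sex in the model (-1.52, edgeR adjusted p = 0.00744) and in macrophages with DESeq2 (adjusted p = 0.0154). Beside them stands the macrophage marker sum of the same libraries given above. All 6 of these further gate genes had a negative change in macrophages and 1 passed, against 0.944% of all genes tested, and in epithelial cells 5 of 5 tested were negative and 3 passed, against 9.17% of all genes tested.

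The genes most akin to each member in their profile over the 14 libraries were found by the root mean square difference of centred log2 CPM among 13420 genes. Nearest to Ptprc were Sdc3 (0.29), Aif1 (0.32) and Lair1 (0.32), to Itgam Atp8b4 (0.31), Ppp1r18 (0.32) and Cd48 (0.32), and to Fcgr1 Themis2 (0.38), Arhgap15 (0.39) and Itgb2 (0.41). Epcam was nearest to the claudin gene Cldn7 (0.25), then Creb3l4 (0.30) and Car2 (0.34), and Cd24a to Paqr4 (0.21), Fkbp4 (0.21) and Entpd5 (0.22). Ly6c1 was nearest to Rasgrp3 (0.39), Cdh13 (0.44) and Bdkrb2 (0.44), whereas Ly6c2 was nearest to Gpr146 (0.40), Cysltr1 (0.47) and Cd300lb (0.49). None of the first 3 genes was shared between the 2 Ly6c paralogs. The scarce genes had more distant neighbours, Dapk1 (0.61), Klrg2 (0.63) and Vcan (0.63) for Siglecf and Atp12a (0.53), Slc15a1 (0.78) and Ces2d-ps (0.91) for Ly6g. The median distance to all genes was between 1.53 for Cd24a and 3.77 for Ptprc.

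Genes that work with the 9 antigens or belong to their families were counted against the same backgrounds, 0.944% of all genes called in macrophages and 9.17% in epithelial cells. Of 16 partner and signalling genes, 0 of 15 tested passed in macrophages (median log2 change 0.06) and 0 of 13 in epithelial cells (median -0.14). Fcer1g, the signalling chain shared by Fc receptors such as CD64, and Tyrobp, the adapter DAP12, were the 2 most abundant of these in macrophages. Fcer1g stood at 1328 ± 309 CPM in cre and 803 ± 24.3 CPM in wt macrophages (SD, n = 3 each), a change of 0.74 (SE 0.18, edgeR adjusted p = 0.119), and at 3.38 ± 1.21 CPM in cre and 6.55 ± 2.19 CPM in wt epithelial cells (SD, n = 4 each), a change of -0.97 (SE 0.31, edgeR adjusted p = 0.0597). Its difference of effects was the 1 that passed among 15 tested (1.69, SE 0.36, edgeR adjusted p = 0.0377). This call was lost in 9 of 14 fits that left out 1 library, those without cre macrophages 10 or 8, wt macrophages 2 or 4, cre epithelial 10, 5 or 9 or wt epithelial 6 or 7 (edgeR adjusted p 0.0198 to 0.105 over the 14). Tyrobp stood at 1017 ± 201 CPM in cre and 867 ± 106 CPM in wt macrophages (SD, n = 3 each). Cldn7, which binds EpCAM at cell contacts, and the tetraspanin gene Tspan8 led in epithelial cells, Cldn7 at 712 ± 57.1 CPM in cre and 758 ± 94.8 CPM in wt, and Tspan8 at 609 ± 47.1 CPM in cre and 474 ± 79.5 CPM in wt (SD, n = 4 each).

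Of 7 Fc receptor genes 0 of 6 tested passed in macrophages (median 0.44) and 0 of 3 in epithelial cells, and all 7 were higher in macrophages. Fcgr2b, the inhibitory Fc receptor, stood at 567 ± 47.0 CPM in cre and 480 ± 50.5 CPM in wt macrophages (SD, n = 3 each), and Fcgrt, the neonatal Fc receptor that carries antibody across epithelium, at 107 ± 9.27 CPM in cre and 94.1 ± 5.23 CPM in wt epithelial cells (SD, n = 4 each). Of 8 other leukocyte integrin genes the calls were Itgae in macrophages and Itgax in epithelial cells, both described above. Itgb7, the partner chain of Itgae, stood at 391 ± 30.5 CPM in cre and 611 ± 247 CPM in wt macrophages (SD, n = 3 each), and its log2 change of -0.62 did not pass (edgeR adjusted p = 0.338). Itgb1 led the integrins of epithelial cells, at 45.6 ± 11.8 CPM in cre and 62.3 ± 7.44 CPM in wt (SD, n = 4 each).

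Of 21 genes of the Ly6 family, the 3 members included, 11 were tested in macrophages and 0 passed (median 0.13). In epithelial cells 11 were tested, 2 rose and 1 fell. Cd177, a neutrophil antigen that colon epithelium also expresses here, rose to 821 ± 82.7 CPM in cre, against 543 ± 86.3 CPM in wt epithelial cells (SD, n = 4 each), which edgeR gave as 0.58 on the log2 scale (SE 0.12, adjusted p = 0.0106). Ly6a, the gene of the Sca-1 antigen, rose by 0.54 (SE 0.13, edgeR adjusted p = 0.0193), with 60.4 ± 7.42 CPM in cre and 41.3 ± 4.05 CPM in wt (SD, n = 4 each), and reads of Ly6a and Ly6c1 may be shared. Plaur, the urokinase receptor, fell by 1.27 (SE 0.37, edgeR adjusted p = 0.0476) at 1.47 ± 0.561 CPM in cre and 3.56 ± 1.38 CPM in wt (SD, n = 4 each). Of the 8 fits that left out 1 library, the call of Cd177 was lost without cre 9, that of Ly6a without cre 10, 5 or 9 or wt 2, and that of Plaur in all but those without cre 8 or wt 7, with edgeR adjusted p up to 0.0514, 0.0799 and 0.123. None of these 3 calls held with the ribosomal RNA share in the model. The most abundant of the family was Ly6e in macrophages, at 1045 ± 144 CPM in cre and 1262 ± 211 CPM in wt (SD, n = 3 each), and Lypd8, which is secreted into the colon lumen, in epithelial cells, at 2238 ± 210 CPM in cre and 1987 ± 815 CPM in wt (SD, n = 4 each).

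Of 9 genes of the Siglec family 8 were tested in macrophages and 1 rose, and none was tested in epithelial cells. This was Cd22, an inhibitory receptor of B cells, at 24.6 ± 8.99 CPM in cre and 6.38 ± 2.15 CPM in wt macrophages (SD, n = 3 each), a change of 1.96 (SE 0.35, edgeR adjusted p = 0.0411), beside the B and plasma cell marker sums given above, which include Cd22 and whose part was not tested. The call of Cd22 was lost in each of 6 fits that left out 1 library (edgeR adjusted p 0.0823 to 0.144) and with sex in the model, where the log2 change was 2.28 (edgeR adjusted p = 0.379). Cd33 was the most abundant of the family in macrophages, at 286 ± 87.8 CPM in cre and 184 ± 61.2 CPM in wt, followed by Siglece at 18.6 ± 2.57 CPM in cre and 27.9 ± 8.65 CPM in wt (SD, n = 3 each), and neither passed the test. All 8 Siglec genes tested were higher in macrophages than in epithelial cells, and Siglecf, at 3.61, had the smallest log2 difference of them.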

How the data were processed

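Cells were sorted by flow cytometry, cDNA was made with Smart-seq2, which keeps no strand, and libraries made with Nextera XT were sequenced as single reads of 50 bases, per the labels' protocols. Picard 2.19.2, STAR 2.5.2b and DESeq2 1.24.0, with the build GRCm38, are listed in the submitters' processing notes. Which program counted reads, on which annotation release and with what strand setting, is not given in the sources used here. The authors deposited whole-number counts per gene and a table of FPKM, each with 1 column per library, and the deposited FPKM equalled count over a value per gene and a factor per library (largest relative deviation 8.88e-16 over 13471 genes). Groups, mouse numbers and sex came from the labels. The titles carry 4 wt mouse numbers, whereas the series text states 3 wt mice, so libraries may share an animal. P-values measure the spread between these libraries.

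The count test was edgeR 4.0.16 in R 4.3.3 (TMM, filterByExpr with a minimum count of 10, robust quasi-likelihood F test, Benjamini-Hochberg adjustment over all genes tested, threshold 0.05). Genotype was tested separately in macrophages and in epithelial cells. The difference of effects and the difference between cell types used all 14 libraries with 4 groups, and the last also required an absolute log2 difference of 1. SE was taken as the size of the log2 change over the root of F. CPM used TMM scaling over the 14 libraries. The sum of Ly6c1 and Ly6c2 was tested with an exact permutation test. Likeness was the root mean square difference of log2 CPM (prior count 2), each gene centred. Models were checked on simulated counts with known 2-fold and 4-fold changes. The genotype test called 15% and 67% of these in macrophages, and 72% and 95% in epithelial cells. The shares were 5% and 54% for the difference of effects, and 38% and 87% between cell types. Alternatives were RLE factors, DESeq2 1.42.0, other filters, ribosomal and mitochondrial rows left out, limma 3.58.1 on log2(FPKM + 1) or log2(FPKM + 0.1), sex, males only, the ribosomal RNA share, all libraries in 1 fit, each library left out in turn and mouse number as a block. The smallest chi-square per degree of freedom between libraries of a group was 6.20, so no library repeated the counts of another. That value cannot show whether libraries came from the same animal, since separately amplified libraries also differ. Shared stretches and coding sequences came from GENCODE transcripts of GRCm38, and overlaps from its annotation. Floors of 3 counts cover counting error alone, since PCR copies are not independent molecules.

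The genes and lists were chosen with earlier results of these data known. Named were all 9 genes and 6 further gate antigens, of each related list the genes called by genotype and the 2 with the highest mean CPM in each cell type, of each marker list its sum and the genes at 0, and the 3 nearest genes by likeness. Other markers and genes were named after their values were seen, where they bear on a member.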

Additional observations from a re-analysis of the deposited data

Results flagged for a closer look

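In the 2 epithelial groups of 4 libraries, 5 of 30 checks of the gate genes found a single library far from the other 3. The gap was near the whole range of the group. The checks shared the same libraries and some rested on few counts, so their number cannot be set against a chance rate. Among the members the library apart was cre 8 for Ptprc, at 2.11 CPM, against 0.965 CPM or less in the other cre epithelial libraries. Cre 8 was also apart for Itgax (1.41 CPM, the next at 0.548 CPM), H2-Ab1 (119.9 CPM, the next at 59.7 CPM) and H2-Eb1 (33.4 CPM, the next at 15.9 CPM). Among cre epithelial libraries it had the highest ribosomal RNA share (26.7%) and the highest macrophage marker sum (86.5 CPM), whose part in these values was not tested. Without cre 8 the epithelial log2 change was -1.94 for Ptprc, -2.31 for Itgax, -1.22 for H2-Ab1 and -1.74 for H2-Eb1. Itgae stood at 0.639 CPM in cre epithelial 10, from 7 counts, and at 0.0867 CPM or less in the other 3.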

How the results depend on the processing

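Between cell types each member kept its call in every alternative that tested it. These were 23 alternatives for each member except Ly6g, with 22, and Siglecf, with 20, which were not tested in the rest. In macrophages 0 members were called under each of 18. In epithelial cells the 1 call (Ptprc) became 0 with a minimum count of 50 and with limma on log2(FPKM + 1) or log2(FPKM + 0.1) with a minimum mean FPKM of 1, which left Ptprc out. It was also 0 with limma without that filter, males only, the ribosomal RNA share in the model or all libraries in 1 fit, and 2 with sex in the model (Ptprc and Epcam), and ran from 0 to 1 when single libraries were left out; the cause was not tested. For the difference of effects DESeq2 called 2. For Ly6c1 plus Ly6c2 in macrophages the log2 ratio of 0.13 ran from -0.26 without cre 9 to 0.45 without cre 8. The order by level per length did not change with TMM-scaled counts.

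None of the changes that turned sign had passed the test. With limma on FPKM these were Ly6c1 in macrophages (-0.032, and -0.035 with 0.1 added) and, for the difference of effects, Itgam (-0.26, and -0.19 with 0.1 added), Ly6c2 (0.0047), Itgax (-0.36) and Siglecf (-0.67). Fcgr1 in macrophages turned to -0.10 with sex or in males only, and Ly6g (0.092) and H2-Ab1 (0.0048) in epithelial cells with the ribosomal RNA share. Leaving out single libraries gave, in macrophages, -0.14 to 0.19 for Fcgr1, -0.35 to 0.49 for Ly6c1, -0.027 to 0.44 for Ly6c2 and -0.12 to 0.0029 for Ptprc, and in epithelial cells -1.29 to 0.23 for Ly6g and -0.059 to 0.39 for Ly6c1. For the difference of effects it gave -1.92 to 0.58 for Itgae, -0.64 to 0.53 for Siglecf, -1.46 to 0.015 for Ly6c2, -0.54 to 0.28 for Ly6c1 and -0.021 to 0.67 for H2-Ab1.

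The tests above did not use mouse number as a block. Some numbers were shared by the cell types of a genotype, and none of these 6 pairs of deviations correlated above 0.1 (-0.03 to 0.09). Low correlations between unlike cell types cannot show whether the paired libraries came from 1 animal. With mouse number as a block, 0 members passed for the difference of effects and 9 between cell types. The difference of effects turned to -0.17 for Siglecf, 0.095 for Ly6c1, 0.18 for Ly6c2 and -0.055 for H2-Ab1. Over all genes the block gave 8 calls for the difference of effects against 115 without it. Genes called in macrophages, 133, ranged from 2 with sex in the model to 485 with DESeq2, and were 299 unfiltered, 47 with limma unfiltered, 32 in males, 18 with the ribosomal RNA share, 374 in 1 fit and 29 to 87 without single libraries. In epithelial cells the 1243 became 0 with the ribosomal RNA share or limma unfiltered, 5 in males, 19 in 1 fit and 178 to 1947 without single libraries. For the difference of effects the 115 became 504 with DESeq2, 195 unfiltered, 297 and 183 with limma with and without its filter, and 54 to 229 without single libraries. Between cell types the 8543 became 4994 and 5536 with limma with and without its filter. Cd44 in epithelial cells kept its call without any single library (edgeR adjusted p 0.00239 to 0.0342), and lost it in males only (0.122), with the ribosomal RNA share (0.105) and with limma unfiltered (0.0520). Itgax in macrophages passed with DESeq2 (0.00156), unfiltered (0.0238) and at a minimum count of 50 (0.0370), and so did Fcer1g there with DESeq2 (0.00759) and unfiltered (0.0315). Cd177, Ly6a and Plaur lost their epithelial calls in males only, in 1 fit and with limma unfiltered. Itgax lost its epithelial call in males only (0.125), in 1 fit (0.0607) and with limma unfiltered (0.283), and H2-Aa in 1 fit (0.0557) and with limma (0.0583 to 0.126). Cd22 lost its call with limma, and Fcer1g that for the difference of effects with the block (0.213). The alternatives for Fcer1g, Itgb7, Cd22, Cd33, Siglece, Cd177, Ly6a, Plaur and the bound of Ly6g were chosen after seeing the data. Depth limited Ly6g, Siglecf, Itgam, Fcgr1 and Ly6c2 outside the cell type where they were higher.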
